A study of Caenorhabditis elegans with 3 samples.

Results

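Divergent gene pairs are neighbouring genes that start close together and are transcribed away from each other, so that 1 stretch of DNA serves as the upstream region of both. The 175 peaks described here are those of the transcription factor PQM-1 that lay at such pairs. They were chosen by rank and position: from the list called on pooled reads, the top 2000 peaks by signal were taken, and a peak was kept when its summit lay in the promoter window of at least 1 plus-strand and at least 1 minus-strand protein-coding gene. That window began 1000 bp before an annotated 5' end and closed 200 bp after it. The 175 divergent-pair peaks were 8.75% of the 2000 peaks and 16.9% of the 1036 peaks that lay in any promoter window (exact 95% binomial interval 14.7% to 19.3%). A further 846 peaks lay in the window of 1 gene and are called single-gene promoter peaks below, 15 lay in windows of several genes of 1 strand, and 964 lay in none.

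PQM-1, from the worm Caenorhabditis elegans, is a transcription factor with zinc fingers, known for acting in the intestine in opposition to the FOXO factor DAF-16 of the insulin pathway. It is associated with a GATA-like element, TGATAAG, the DAF-16-associated element. Worm genes are compact, many messages are trans-spliced, and an annotated 5' end is often the trans-splice site rather than the place where transcription starts. A peak between head-to-head genes therefore cannot be assigned to either gene from its position alone.

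ChIP-seq, in which DNA bound by a protein is pulled down and sequenced, was done on whole L1 larvae (the first larval stage) of mixed sex, from strain OP201, genotype unc-119(tm4063) III; wgIs201. The transgene gives PQM-1 with a GFP-FLAG tag at its C-terminus, and the labels name pqm-1 as the antibody target. What drives the transgene is not given in the sources used here, and the age of the larvae is listed as unknown. There was 1 group with 3 biological replicates per the labels, each with a list of 30000 peaks ranked by signal, plus a list from the pooled reads of all 3. The larvae were used whole, so strong binding in few cells and weak binding in many cannot be told apart. The files give no read counts, so the depth is unknown and intervals cover the counting of peaks only.

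Sequences from under some of the summits are shown here. They were chosen by the words they held, so the contrast between them follows from that choice. The 5 highest-ranked divergent-pair peaks that held TGATAAG within 50 bp of the summit on a stretch free of exons are shown first, since this is the element PQM-1 is known for. All sequences are on ce11 (WBcel235), plus strand, 5' to 3', from the RefSeq genome, and run from 50 bp before to 50 bp after the summit. Each is named by its minus-strand gene, then its plus-strand gene. Capitals mark TGATAAG and 4 GATA words, which are GATA after A or T and before A or G (AGATAA, for example), in either orientation. Exon-bearing windows and those of 1 chromosome were left out of this choice.
srh-166 and Y38H6C.24, chrV:20526232-20526332: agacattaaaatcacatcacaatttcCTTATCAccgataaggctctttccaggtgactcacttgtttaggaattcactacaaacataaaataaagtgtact
F08F3.8 and acl-6, chrV:5433244-5433344: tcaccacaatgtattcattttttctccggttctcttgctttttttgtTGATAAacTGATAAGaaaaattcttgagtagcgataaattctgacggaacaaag
C39B5.10 and srz-56, chrIII:2239904-2240004: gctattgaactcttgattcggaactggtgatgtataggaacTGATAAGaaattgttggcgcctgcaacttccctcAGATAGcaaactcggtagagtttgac
gst-36 and R07B1.5, chrX:9863055-9863155: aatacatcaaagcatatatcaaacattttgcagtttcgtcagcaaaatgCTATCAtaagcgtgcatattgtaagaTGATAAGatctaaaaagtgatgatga
nlt-1 and ZK892.3, chrII:10001176-10001276: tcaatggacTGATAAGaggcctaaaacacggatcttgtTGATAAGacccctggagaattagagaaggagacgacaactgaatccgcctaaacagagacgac

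The 3 highest-ranked peaks with none of these words, under the same conditions, are shown because they stood higher in the list than those above. In them capitals mark words that were noticed in these very sequences, CATACACT and CGCTCCAC in either orientation.
K01G5.10 and tasp-1, chrIII:10759197-10759297: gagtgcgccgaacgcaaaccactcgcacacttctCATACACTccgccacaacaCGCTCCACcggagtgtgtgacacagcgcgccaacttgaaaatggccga
rpl-15 and K11H12.8, chrIV:654885-654985: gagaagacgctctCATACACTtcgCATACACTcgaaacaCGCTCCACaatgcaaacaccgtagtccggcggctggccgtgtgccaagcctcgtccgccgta
rpl-20 and Y17G9B.5, chrIV:4750018-4750118: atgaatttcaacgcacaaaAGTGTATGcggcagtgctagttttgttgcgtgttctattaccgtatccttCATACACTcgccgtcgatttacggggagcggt

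The hsp-90 pair is added as the first of the chaperone genes, and the whole gap between jmjd-4 and mev-1 as the highest-ranked pair chosen likewise whose gap of under 300 bp held no exon. The hsp-90 window had no capitalised word. In the gap of jmjd-4 and mev-1 the peak summit lay 26 bp before the annotated start of mev-1, close to TGATAAG. That gap ended in ttcag, letters that match the consensus of a worm splice acceptor. Of the 350 member 5' ends, 86 (24.6%) directly followed TTNCAG, against 3790 of the outermost 5' ends of all 19973 protein-coding genes (19%).
C47E8.4 and hsp-90, chrV:14685693-14685793: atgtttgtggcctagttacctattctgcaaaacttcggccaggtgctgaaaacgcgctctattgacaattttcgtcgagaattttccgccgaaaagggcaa
jmjd-4 and mev-1, chrIII:10334019-10334276: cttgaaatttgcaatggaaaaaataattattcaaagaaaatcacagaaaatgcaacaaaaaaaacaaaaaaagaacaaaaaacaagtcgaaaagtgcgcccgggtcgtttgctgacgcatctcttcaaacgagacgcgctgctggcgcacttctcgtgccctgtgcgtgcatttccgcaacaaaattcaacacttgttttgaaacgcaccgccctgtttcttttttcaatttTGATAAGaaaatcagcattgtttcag

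The peaks covered 172 distinct gene pairs, all of them head-to-head by the 5' ends nearest the summit. The pairs ugtp-1 with sma-2, nhr-80 with H10E21.1 and W01A8.2 with plin-1 each held 2 peaks, and 10 peaks had 3 or more genes in their windows. In all, 354 genes had a divergent-pair peak in their window, 1.77% of the 19973 nuclear protein-coding genes. Of the 2556 head-to-head neighbours in the genome whose outermost 5' ends lay at most 2000 bp apart, 166 (6.49%) held a divergent-pair peak. The promoter windows limit which spacings can be found, so spacing and summit position are descriptions here.

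The 5' ends of the 172 pairs lay a median of 578.5 bp apart, with quartiles of 374.5 and 894 bp, against a median of 681 bp over all 2556 head-to-head neighbours. The measures are unlike: the pairs were measured between the 5' ends nearest the summit, the neighbours between outermost 5' ends. Counted over peaks, the median was 607 bp as measured here and 530 bp with outermost 5' ends. A divergent-pair peak was held by 6.99% of neighbours spaced 1 to 250 bp, 9.41% at 251 to 500 bp, 8.0% at 501 to 750 bp and 8.52% at 751 to 1000 bp. The share was 3.87% at 1001 to 1500 bp and 0.617% at 1501 to 2000 bp, spacings at which much of the gap lies outside 1 of the windows. Below 1000 bp the share thus varied little with the width of the gap.

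**Figure D1:**
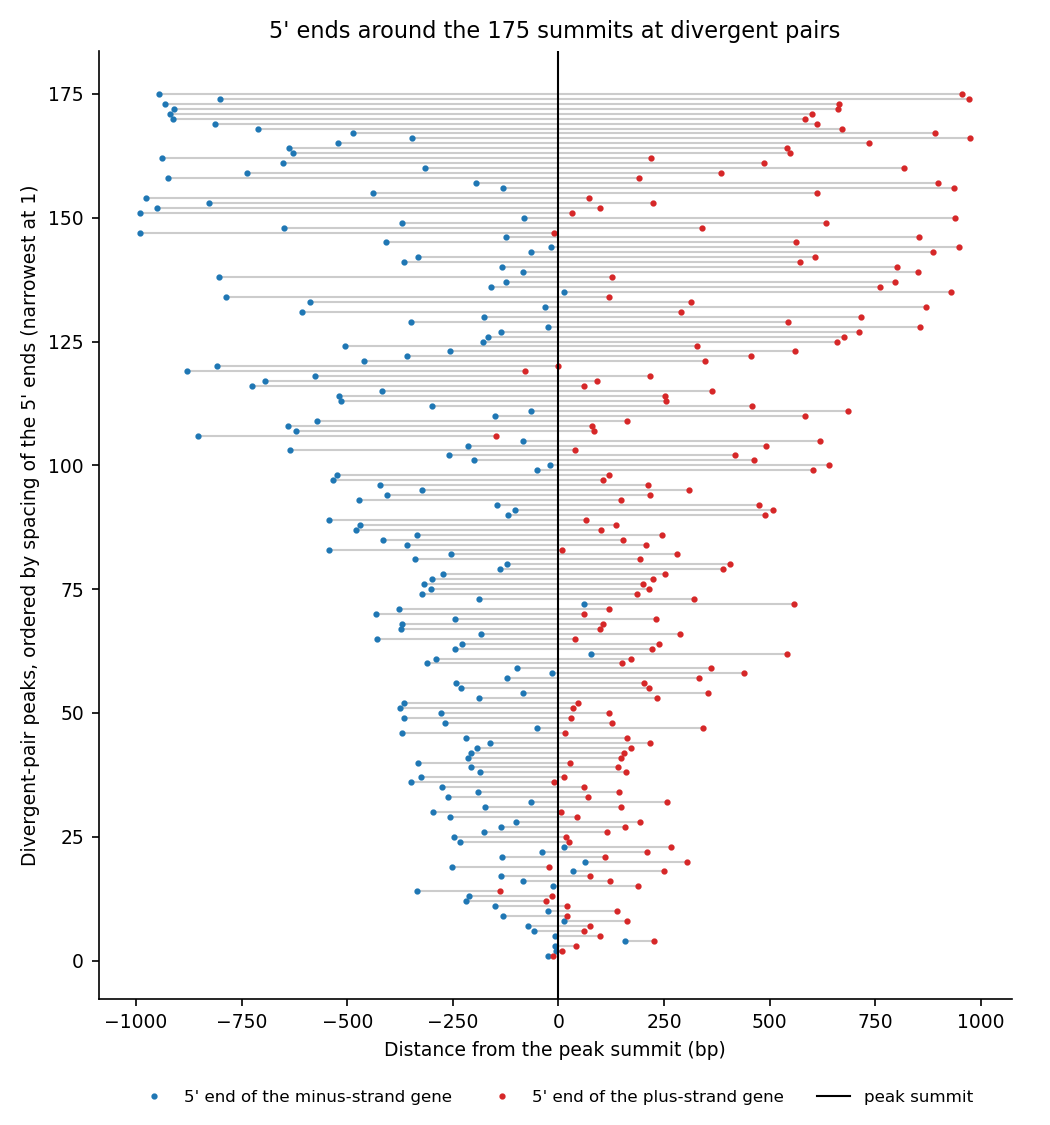
Each row is 1 of the 175 divergent-pair peaks, placed with its summit at 0. Blue points are the 5' end of the minus-strand gene and red points that of the plus-strand gene, in bp from the summit, and grey lines the gap between them. Rows are ordered by spacing, from 12 bp at the bottom to 1899 bp at the top, and in 157 rows the summit lies between the points.

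The narrowest gaps were those of F32D8.14 with F32D8.5 (12 bp), F25H9.6 with F25H9.7 (15 bp) and cest-4 with C17H12.11 (50 bp). The widest were those of tceb-3 with gskl-1 (1899 bp), mdh-1 with F46E10.3 (1771 bp) and hrg-4 with hrg-6 (1595 bp). mdh-1 encodes a malate dehydrogenase, and hrg-4 and hrg-6 encode heme transporter-family proteins. The F32D8.14 peak ranked 141 in replicate 2 and 15117 in replicate 1 and had no counterpart in replicate 3. The tceb-3 peak ranked 1928, 4417 and 19835 in replicates 1, 2 and 3. Neither extreme was thus among the peaks ranked high in every replicate.

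The summit lay between the 5' ends in 157 of 175 peaks (89.7%, 84.2% to 93.8%), and a short way downstream of 1 of them in 18. The nearer 5' end was a median of 135 bp from the summit (quartiles 60 and 217.5 bp) and the farther one 438 bp (quartiles 267.5 and 667 bp). For the single-gene promoter peaks the nearest 5' end was a median of 216 bp away; a pair offers 2 chances of a near 5' end, so these values are not alike in kind. The nearer gene was the plus-strand one in 100 peaks and the minus-strand one in the other 75.

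Within the gap, summits did not gather at 1 position. Measured from the nearer 5' end, 26 of the 157 lay in the first 0.1 of the gap, 36 from 0.1 to 0.2, 20 from 0.2 to 0.3, 33 from 0.3 to 0.4 and 42 from 0.4 to 0.5, the middle. Both the stretch beside a gene and the middle of the gap were thus well filled. In 55 of the 175 peaks (31.4%) the summit lay 100 to 500 bp upstream of both genes at once.

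**Figure D2:**
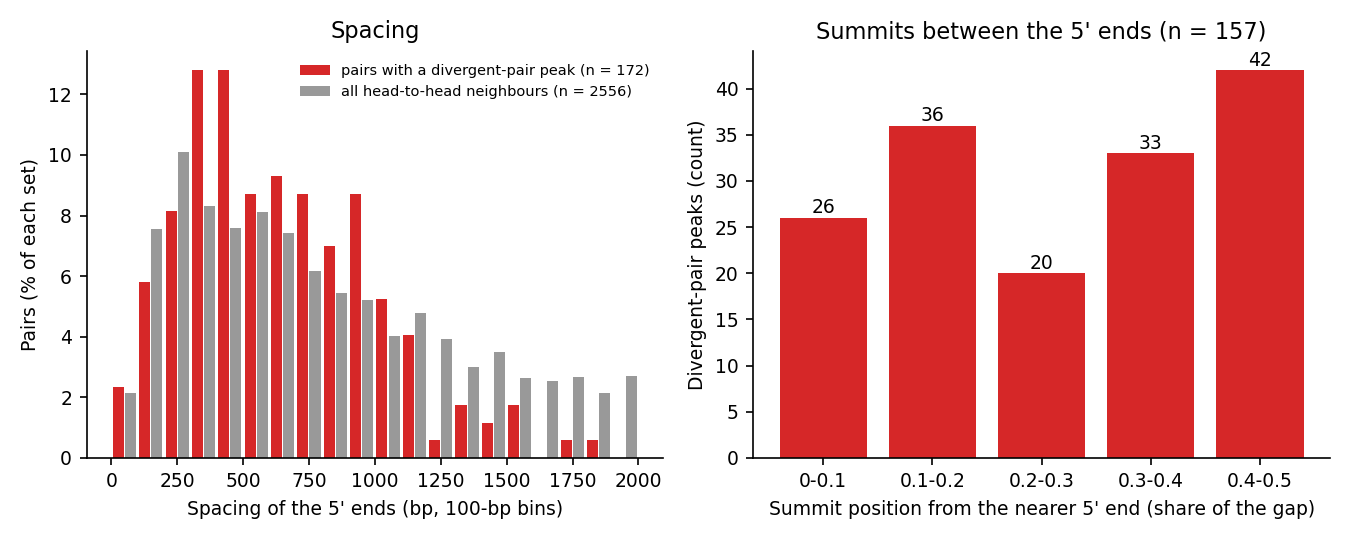
Left, spacing of the 5' ends in bins of 100 bp, as a percent of the 172 pairs with a divergent-pair peak (red) and of all 2556 head-to-head neighbours (grey). Red spacings are between the 5' ends nearest the summit and grey ones between outermost 5' ends. Right, number of summits between the 5' ends by their position from the nearer 5' end as a share of the gap, with the most, 42 of 157, in the 0.2 of the gap around its middle.

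In the replicates' whole lists, 88 of the 175 peaks had a counterpart covering at least 50% of them in all 3. Over these 88 the SD of the summit position across replicates had a median of 35.8 bp (4.58 to 122 bp, n = 3 each), against 35.5 bp for 452 single-gene promoter peaks. The 50% overlap bounds how far a replicate's summit can lie from the pooled one. That rule thus caps the SDs in both classes and favours an unchanged nearer gene. The gene nearer the summit was the same in the pooled list and all 3 replicates for 73 of 88 (83.0%). Of the 21 whose summit lay within 0.1 of the gap's length of its middle it was the same for 10, and of the other 67 for 63. A summit near the middle needs a shorter shift to change its nearer gene, so the geometry of the gap fixes part of this difference.

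The steadiest summits were those of Y73C8B.3 with Y73C8B.9 (SD 4.58 bp), rpl-12 with lin-54 (5.03 bp), prp-19 with K10D2.5 (5.57 bp), mtx-1 with dnj-12 (9.54 bp) and nhl-2 with tag-340 (9.87 bp). The least steady were C36B1.13 with C36B1.6 (122 bp), hrg-4 with hrg-6 (116 bp), D1005.10 with dhs-25 (94.3 bp), usp-14 with vnut-1 (89.8 bp) and srj-49 with ugt-53 (84.5 bp). A steady summit did not mean a high rank: the rpl-12 peak ranked 8248, 8983 and 17334 in the replicates. lin-54 encodes the DNA-binding subunit of the DREAM complex and prp-19 a splicing factor.

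The 20 divergent-pair peaks with the highest pooled signal, the value by which they were chosen, ranked from 33 to 213 in the pooled list and had a pooled signal of 81.1 to 48.6. The first was the peak of nhl-2, a TRIM-NHL protein that works with microRNA complexes, and tag-340, a START-domain gene. It ranked 22 in replicate 1, 48 in replicate 2 and 2379 in replicate 3. Its summit lay 812 bp from the 5' end of nhl-2 and 611 bp from that of tag-340, in a gap of 1423 bp. It was high in replicates 1 and 2 and low in replicate 3.

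The peak of fbxa-108, an F-box gene, and dgat-2, an acyltransferase gene of fat synthesis, ranked 25, 970 and 95 in replicates 1, 2 and 3. It lay 12 bp inside fbxa-108 and 930 bp upstream of dgat-2. The peak of K01G5.10, a hydrolase-domain gene, and tasp-1, a homologue of the protease taspase, ranked 57, 52 and 42, a mean of 50.3 ± 7.64 (SD, n = 3). That was the closest agreement between replicates among these 20. Y54F10AM.8, a phospholipase B-like gene, and Y54F10AM.6 followed with 118, 190 and 43.

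Ribosomal protein genes held 4 of the 20. The peak of rpl-15 and K11H12.8 ranked 89, 238 and 292 in replicates 1, 2 and 3, and that of rpl-20 and Y17G9B.5 ranked 70, 142 and 1445. That of rps-20 and ekl-4, a homologue of a DNA methyltransferase-associated protein, ranked 100, 341 and 6443. That of rps-19 and hsr-9 ranked 389, 152 and 1185. All 4 stood within the top 2000 in replicates 1 and 2, and rps-20 fell outside it in replicate 3.

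Other pairs among the 20 joined genes of several kinds. C56A3.6, an EF-hand gene, and cav-2, a caveolin, had ranks of 484, 44 and 129 in replicates 1, 2 and 3. The innexin genes inx-15 and inx-16, whose products build gap junctions, had 122, 1558 and 117. F08F3.8 and acl-6, an acyltransferase of phospholipid synthesis, had 344, 45 and 79. Each of these 3 was within the top 2000 of every replicate.

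Y43F8C.13, a nucleoside hydrolase gene, and ani-3, an anillin-like gene, ranked 99 in replicate 1 and 65 in replicate 3 but had no counterpart covering 50% of the peak in replicate 2. ecps-1, a proteasome-associated gene, and atx-2, an ataxin-2 homologue, had ranks of 156, 470 and 3319. The chemoreceptor-family gene srh-166 and Y38H6C.24 had 46, 194 and 2792. In the last 2 pairs replicate 3 alone fell past rank 2000.

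C39B5.10, a granulin-domain gene, and the chemoreceptor-family gene srz-56 ranked 546, 356 and 136 in replicates 1, 2 and 3. gst-36, a glutathione S-transferase, and R07B1.5 ranked 331, 505 and 3535. gcy-33, a soluble guanylate cyclase, and cpr-9, a cathepsin B-like protease, ranked 652, 75 and 171. The C39B5.10 and gcy-33 peaks were within the top 2000 in every replicate.

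The pairs srh-282 with sma-10 and ugtp-1 with sma-2 each join a gene of the worm BMP-like pathway, which sets body size, to a neighbour of another kind. sma-10 encodes a membrane protein that modulates the pathway and sma-2 a Smad. The sma-10 peak lay 31 bp from the 5' end of sma-10 and ranked 132, 216 and 7847 in replicates 1, 2 and 3. The highest sma-2 peak lay 854 bp from the 5' end of sma-2 and 125 bp from that of ugtp-1, a nucleotide-sugar transporter, and ranked 583, 2622 and 985.

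**Figure D3:**
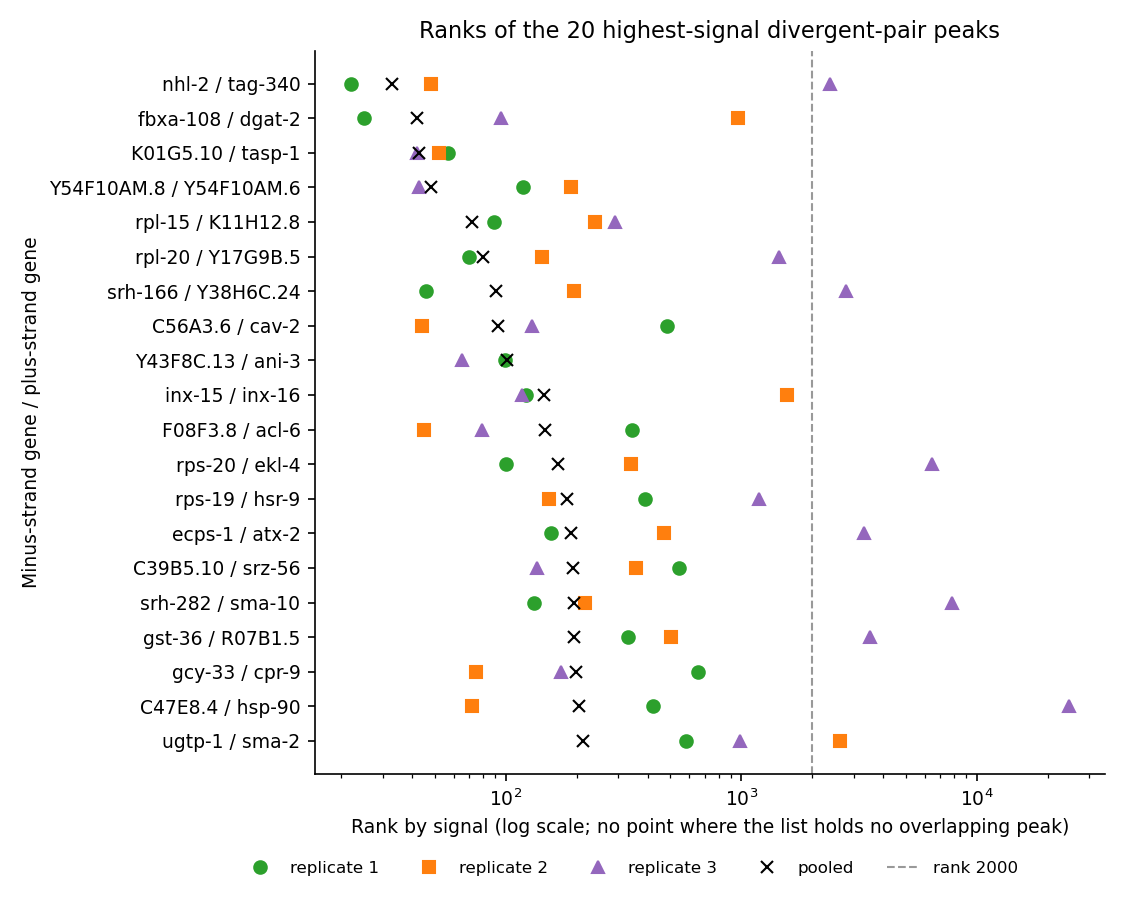
Rank by signal (log scale) of the leading 20 divergent-pair peaks in replicate 1 (circles), replicate 2 (squares), replicate 3 (triangles) and the pooled list (crosses), from nhl-2 and tag-340 at the top to ugtp-1 and sma-2 at the bottom. The dashed line is rank 2000, and 7 of the triangles lie to its right.

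Replicate 3 differed from the other two across the whole set. Of the 175 divergent-pair peaks, 108 (61.7%) were found in the 2000 highest-signal peaks of replicate 1, beside 59.5% of all 2000 pooled peaks. In replicate 2 it was 114 (65.1%), beside 52.0%, and in replicate 3 it was 33 (18.9%), beside 25.2%. All 3 top lists held 17 (9.71%, 5.76% to 15.1%), beside 11.1% of all pooled peaks. A total of 66 were in 2 lists, 72 in 1 and 20 in none. The pooled list was made from the same reads, so these shares describe which replicates the pooled ranks rest on.

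The replicates' own 2000 highest-signal peaks held 163, 202 and 55 divergent-pair peaks in replicates 1, 2 and 3. These were 16.3%, 19.9% and 9.02% of the peaks in promoter windows, a mean of 15.1% ± 5.53 (SD, n = 3). The summit lay between the 5' ends in 84.5% ± 7.22 and the nearer 5' end was 152 ± 9.07 bp away (median per replicate, SD, n = 3). Their median spacing was 632 ± 127 bp. Replicate 3 stood apart in spacing (778 bp, against 569 and 548 bp in replicates 1 and 2) and in the share of summits between the 5' ends (76.4%, against 87.1% and 90.1%). The promoter windows bound position and spacing in every replicate, so these values are descriptions.

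Besides the leading pairs, 6 peaks in the top 2000 of every replicate stood lower in the pooled list. They were those of aat-4, an amino acid transporter-family gene, with T13A10.1 (pooled rank 234), tmem-107 with rps-26 (266), F30F8.5 with taf-5 (399), spp-2 with spp-6 (421), tim-1 with Y75B8A.23 (762) and R193.2 with R193.6 (1047). taf-5 encodes a subunit of the general transcription factor TFIID.

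Ribosomal protein genes were the largest group among the pairs. A divergent-pair peak lay in the window of 17 of the 82 (20.7%), and of the 49 that are in head-to-head pairs 17 had one (34.7%), beside 6.51% of all 5112 genes in such pairs. A single-gene promoter peak was held by 5 others, beside 827 of all genes (4.14%). After the 4 already given came rps-26 (rank 266), rps-1 (339), rps-15 (397), rps-13 (648), rpl-43 (832), rpl-7A (992), rpl-33 (1005), rps-12 (1233), rpl-28 (1361), rps-23 (1400), rpl-4 (1485), rpl-12 (1764) and rpl-36.A (1967).

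At these 17 peaks the summit lay a median of 290 bp upstream of the ribosomal protein gene, from 12 bp downstream at rpl-7A to 762 bp upstream at rpl-43. The ribosomal protein gene was the nearer of the pair in 5 and the farther in 12, and 16 summits lay between the 5' ends. The partners were of many kinds, among them ifet-1, which binds a translation initiation factor, nfx-1, the kinetochore gene ska-3, nuo-1 of respiratory complex I, and mrpl-49 of the mitochondrial ribosome. None of the 17 summits had TGATAAG within 50 bp, and 1 had any of the 4 GATA words, beside 18.9% and 37.1% of all 175 divergent-pair peaks. Of the 5 single-gene promoter peaks with a ribosomal protein gene in the window, 0 had any of the 4 words. With any ribosomal protein, translation, proteasome or chaperone gene in the windows, the 4 words were at 2 of 29 divergent-pair peaks and 1 of 17 single-gene promoter peaks. The low share was thus not particular to divergent-pair peaks, though the peaks are few.

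Heat shock and chaperone genes came next, with 8 of 61 (13.1%, beside 1.77% of all genes), and 7 of the 32 in head-to-head pairs (21.9%, beside 6.51%). hsp-90, the cytosolic Hsp90, shared its peak with C47E8.4 and ranked 420, 72 and 24584 in replicates 1, 2 and 3. By outermost 5' ends at most 2000 bp apart, hsp-90 had no head-to-head neighbour. hsp-110, an Hsp70-family nucleotide exchange factor, shared its peak with the proteasome gene rpn-3 and ranked 200 and 547 in replicates 1 and 2, with no counterpart in replicate 3. cct-1, a subunit of the chaperonin that folds actin and tubulin, shared its peak with mig-5, a Dishevelled homologue, and ranked 761, 124 and 10678. dnj-12, a DnaJ cochaperone, was at 2337, 572 and 13739.

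All 4 were thus inside the top 2000 in replicate 2 and outside it in replicate 3. The remaining genes were cct-8, cct-7, dnj-19 and dnj-14, at pooled ranks of 821, 1509, 1605 and 1623. None of the 8 peaks had TGATAAG within 50 bp, beside 18.9% of all divergent-pair peaks, a count too small to set the 8 apart. The small heat shock genes hsp-16.1 and hsp-16.2, which start head-to-head with hsp-16.48 and hsp-16.41, had no peak of the top 2000 in their windows.

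**Figure D4:**
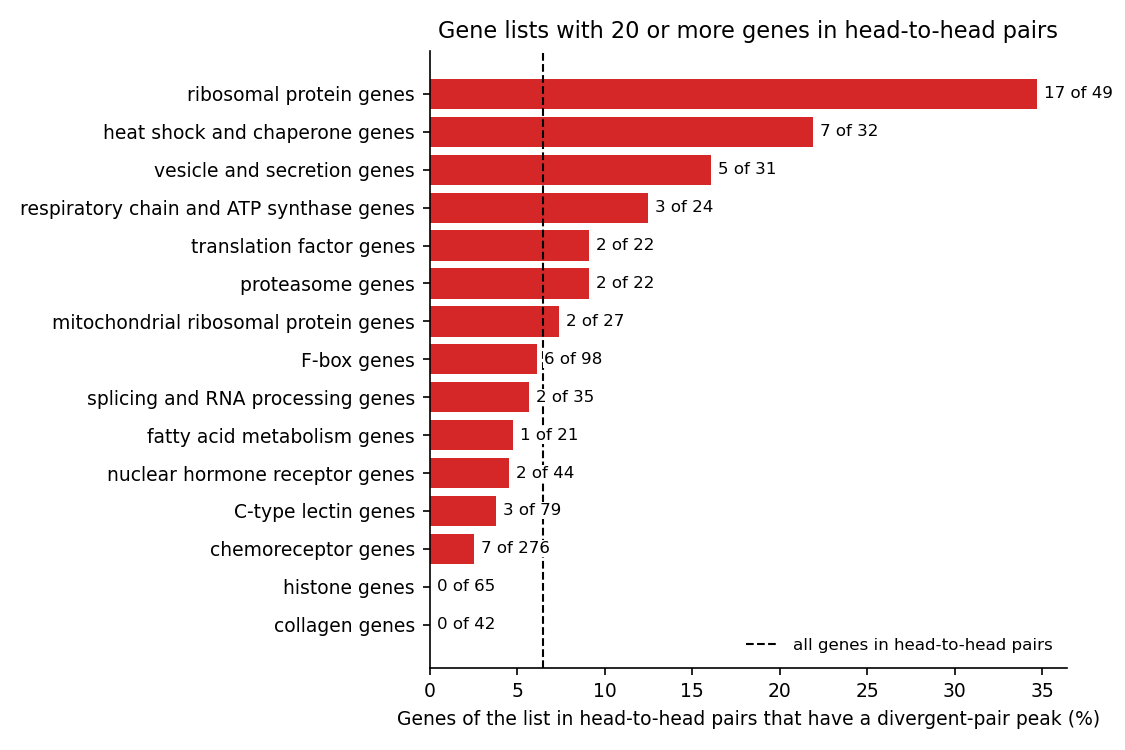
For each gene list with 20 or more genes in head-to-head pairs, the bar is the percent of those genes that have a divergent-pair peak, with the count beside it. The dashed line is the same percent over all 5112 genes in head-to-head pairs, 6.51%, and the bars run from 34.7% for ribosomal protein genes to 0 for histone and collagen genes.

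Vesicle and secretion genes held 6 of 66 (9.09%, beside 1.77% of all genes), and of the 31 in head-to-head pairs 5 had a divergent-pair peak (16%, beside 6.51%). They were led by sec-61.B and trap-3, which are subunits at the protein-conducting channel of the endoplasmic reticulum and are each other's partner (rank 418). rab-7, trap-2, sec-15 and arf-6 were the others. The respiratory chain list held atp-3, atp-1 and nuo-1, the proteasome list rpn-3 and rpn-6.1, the translation factor list iff-2 and eef-2, and the splicing list prp-19 and rsp-3. The mitochondrial ribosomal list held mrps-7 and mrpl-49. In head-to-head pairs these were 3 of 24, 2 of 22, 2 of 22, 2 of 35 and 2 of 27 genes, from 12.5% to 5.71%. With 2 or 3 genes each, nothing is read from these shares.

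Several larger families were counted in the same way, beside the 6.51% of all paired genes and with no test. Chemoreceptor genes had 7 of 276 in head-to-head pairs (2.54%), led by srh-166, srz-56, srh-282 and sri-5. F-box genes had 6 of 98 (6.12%), near the share of all paired genes, led by fbxa-108, fbxa-134, fbxa-79 and fbxa-69. C-type lectin genes had 3 of 79 (3.8%), and among all 240 genes of that family 4 had a divergent-pair peak, clec-41, clec-62, clec-63 and clec-85. Nuclear hormone receptor genes had 2 of 44 (4.55%), nhr-80 and nhr-47. The smaller family of glutathione S-transferases had gst-36 and gst-42, 2 of 14. Both of their peaks held TGATAAG, beside 18.9% of all divergent-pair peaks, but 2 peaks are too few to set the family apart.

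Replication-dependent and other histone genes, of which 65 of 73 are in head-to-head pairs, had no divergent-pair peak, and neither did the 170 collagen genes. No marker gene of intestine (10 genes), body muscle (11), pharynx (17), neurons (15), hypodermis (10) or germline (20) had one, but few of them are in head-to-head pairs. Of the intestine markers it was 3 and of the germline markers 7. elt-2, the intestinal GATA factor, and lys-8, a lysozyme, each had a single-gene promoter peak, at ranks 365 and 56. The gene pqm-1 itself had no peak of the top 2000 in its window.

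In 6 pairs both genes shared a name stem or stood in 1 of the gene lists. Besides inx-15 with inx-16, sec-61.B with trap-3 and hrg-4 with hrg-6, these were the saposin-like antimicrobial genes spp-2 and spp-6, the C-type lectin genes clec-62 and clec-63, and bath-26 with bath-47, of the BTB and MATH domain family. By their RefSeq products other pairs were alike too, among them dod-21 with cld-1 (CUB-like domain, rank 652), F47H4.2 with fbxa-134 (DUF38 domain, rank 337), ZK1240.2 with ZK1240.6 (RING-type domain, rank 350) and fbxb-7 with Y20C6A.1 (F-box domain, rank 1685), which were chosen after their values were seen. The spp-2 peak ranked 1994, 489 and 497 in replicates 1, 2 and 3, in the middle of a gap of 523 bp. The clec-62 peak ranked 1165, 10290 and 53 and held TGATAAG. The bath-26 pair stood at pooled rank 1750. Pairs of 1 family were not counted over all head-to-head neighbours, so the 6 pairs are not read as many or few.

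The test between the classes of peak concerned the words under the summits, which the choice of members did not use. TGATAAG lay within 50 bp of the summit in 33 of 175 divergent-pair peaks (18.9%, 13.4% to 25.5%) and 239 of 846 single-gene promoter peaks (28.3%, 25.2% to 31.4%), beside 26.1% of all 2000 peaks. The difference of -9.39 percentage points had an adjusted p of 0.0270 by Fisher's exact test, two-sided, with Benjamini-Hochberg adjustment over 8 words. Any of the 4 GATA words lay there in 65 divergent-pair peaks (37.1%, 30.0% to 44.8%) and 504 single-gene promoter peaks (59.6%, 56.2% to 62.9%), beside 56.3% of all 2000. That difference was -22.4 points (adjusted p = 5.48e-07, Fisher's exact test). TGATAA alone was in 29.7% of divergent-pair peaks and 48.9% of single-gene promoter peaks (adjusted p = 1.10e-05, Fisher's exact test). These overlap, since TGATAAG contains TGATAA, which is 1 of the 4.

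Even so, the words were more frequent at divergent-pair summits than around them. At points 500 bp to either side of the same summits TGATAAG was within 50 bp in 1.43% and the 4 words in 18.3% of 350. At the midpoints of all 2556 head-to-head gaps it was 2.70% and 21.4%. Many of the points 500 bp away lay past an annotated 5' end, since the farther 5' end was a median of 438 bp from the summit. Such points are not alike in kind to the summits, most of which lay between the 5' ends. Of the 33 peaks with TGATAAG, 24 had it within 25 bp of the summit. In 12 of the 33 it read toward the nearer gene, which was not tested, and the peaks are too few to say whether an orientation was favoured.

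Of the other words, TATAAA was in 3.43% of divergent-pair peaks and 8.75% of single-gene promoter peaks (adjusted p = 0.0270, Fisher's exact test). In the replicates' own lists that difference was 0.933, -1.06 and 0.471 points, with no common direction. TGTTTAC, the core of forkhead sites, was in 4.57% of divergent-pair peaks and 2.96% of single-gene promoter peaks (adjusted p = 0.331, Fisher's exact test), and CACGTG in 4.0% of divergent-pair peaks and 4.26% of single-gene promoter peaks. GGGCGG was in 7.43% of divergent-pair peaks and 4.49% of single-gene promoter peaks (adjusted p = 0.20, Fisher's exact test). The control GAATAGT, a reversed GATA word, was in 1 divergent-pair peak and 7 single-gene promoter peaks. None of these 4 passed the test.

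The lower share of GATA words was seen in 2 of the 3 replicates. In the replicates' own 2000 highest-signal peaks the share of divergent-pair peaks with any of the 4 words minus that of single-gene promoter peaks was -18.6, -24.8 and 1.74 points in replicates 1, 2 and 3, a mean of -13.9 ± 13.9 (SD, n = 3; exact sign-flip permutation test, two-sided, p = 0.50, where 0.25 is the smallest it can give). For TGATAAG it was -7.93, -9.22 and 1.09 points. In replicate 3, with 55 divergent-pair peaks, 41.8% of them and 40.1% of single-gene promoter peaks had 1 of the 4 words. The adjusted p-values above therefore speak of the pooled peaks, not of the spread between replicates.

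**Figure D5:**
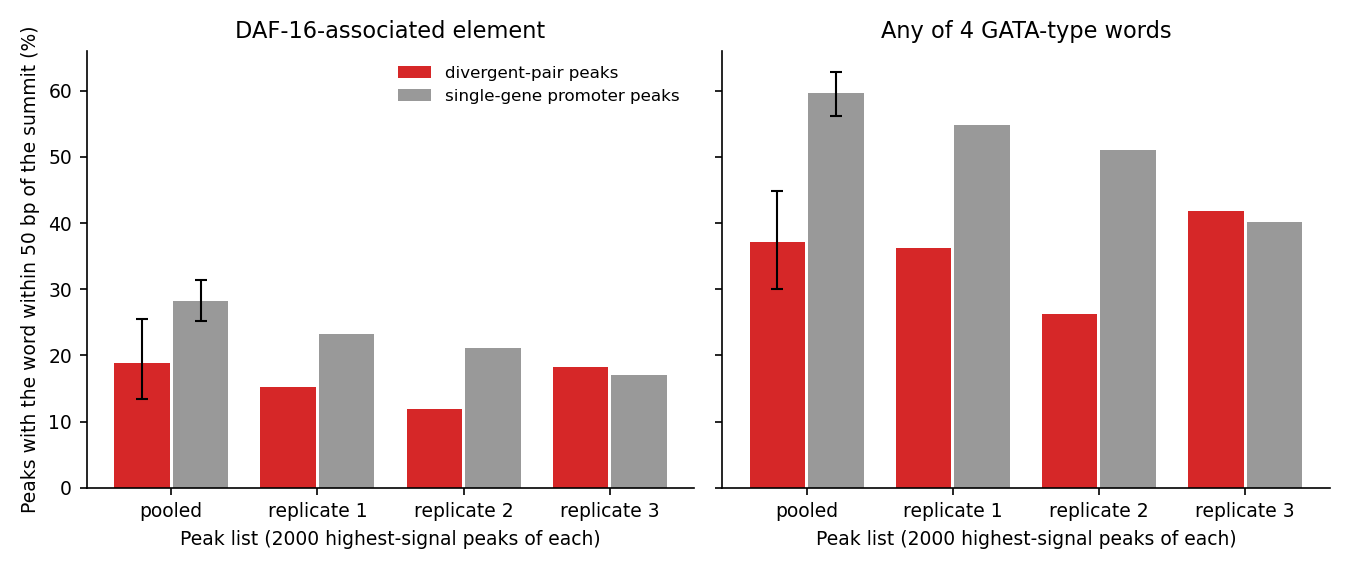
Percent of divergent-pair peaks (red) and single-gene promoter peaks (grey) with TGATAAG (left) or any of the 4 GATA words (right) within 50 bp of the summit, among the top 2000 peaks by signal in the pooled list and in each replicate. Error bars on the pooled values are exact 95% binomial intervals; red is below grey in the pooled list and in replicates 1 and 2, and not in replicate 3.

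Without peaks that had a ribosomal protein gene in their window, TGATAAG was in 33 of 158 divergent-pair peaks (20.9%) and 239 of 841 single-gene promoter peaks (28.4%; adjusted p = 0.104, Fisher's exact test). The 4 words were then in 64 of 158 divergent-pair peaks (40.5%) and 504 of 841 single-gene promoter peaks (59.9%; adjusted p = 5.84e-05, Fisher's exact test). The TGATAAG difference also missed 0.05 with words within 25 bp (adjusted p = 0.328, Fisher's exact test), with windows of 500 bp upstream (0.0781), and among the few peaks found in replicates 2 and 3 (0.686) or 1 and 3 (0.464). The difference for the 4 words missed it among peaks found in replicates 1 and 3 (0.0891). Among pooled ranks 1 to 682 the TGATAAG difference was -17.1 points (p = 0.0147, Fisher's exact test, not adjusted). Among lower ranks, with 112 divergent-pair peaks, it was -5.21 points and missed 0.05 (p = 0.247, Fisher's exact test). For the 4 words the differences were -23.8 and -21.8 points. With a nearer 5' end over 100 and up to 250 bp away the 4 words were at 30.0% of 70 divergent-pair peaks and 64.4% of 247 single-gene promoter peaks, a difference of -34.4 points (p = 5.24e-07, Fisher's exact test, not adjusted). With a nearer 5' end 0 to 100 bp away it was -22.1 points, from 44.1% of 68 divergent-pair peaks and 66.2% of 219 single-gene promoter peaks (p = 0.00163, Fisher's exact test). Over 250 bp away it was -14.8 points, from 37.8% of 37 divergent-pair peaks and 52.6% of 380 single-gene promoter peaks, and missed 0.05 (p = 0.120, Fisher's exact test). GC content within 50 bp of the summit had a median of 40.6% in divergent-pair peaks and 39.6% in single-gene promoter peaks, against 33.7% at the midpoints of all head-to-head gaps.

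The words noticed in the sequences without GATA words recurred at other pairs, which is given as a description with no test, since both words were picked from the leading peaks. CATACACT lay within 50 bp of the summit in 5 of 175 divergent-pair peaks, 1 of 846 single-gene promoter peaks, 7 of the 964 peaks outside promoter windows and 5 of 2556 gap midpoints. Its peaks were those of K01G5.10 with tasp-1, rpl-15, rpl-20, rps-1 with ifet-1, and C49C3.9 with C49C3.21. CGCTCCAC lay in 8 divergent-pair peaks, 3 single-gene promoter peaks, 1 peak outside promoter windows and 18 gap midpoints. Its peaks were those of tasp-1, rpl-15, rps-1, rps-15, rpl-12, dnj-12 with mtx-1, prp-19, and rsp-3 with spin-4. The pairs of tasp-1, rpl-15 and rps-1 had both words. None of the peaks with either word had TGATAAG, beside 18.9% of all divergent-pair peaks, but those of rps-15 and C49C3.9 had TGATAA. The peaks are few and the words came from sequences chosen for having no GATA word, so nothing is read from this.

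The chromosomes held 30 (I), 26 (II), 38 (III), 35 (IV), 36 (V) and 10 (X) of the 175 peaks. Chromosome X thus had 5.71% of the divergent-pair peaks and 19.5% of the single-gene promoter peaks, and it holds 6.96% of all head-to-head neighbours in the genome. Chromosome III had 21.7% of the divergent-pair peaks and 15.1% of the neighbours. On chromosome X, TGATAAG was at 5 of 10 divergent-pair peaks and 32 of 165 single-gene promoter peaks, the opposite direction from the whole set. The 4 GATA words were there at 5 of 10 divergent-pair peaks and 92 of 165 single-gene promoter peaks, the same direction as the whole set (-5.76 points). Neither rests on more than 10 divergent-pair peaks.

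At the edge of the choice, the last divergent-pair peak inside rank 2000 was that of bre-4 and Y73E7A.1 (rank 1973, signal 24.27), and the first outside was that of Y57E12AL.6 and Y57E12AL.1 (rank 2018, signal 24.08). The farthest 5' ends inside the window were 990 bp away, at srh-282 with sma-10 and ugtp-1 with sma-2, and the nearest outside it were at lgl-1 with F56F10.1 (1006 bp) and vgln-1 with C08H9.16 (1008 bp). In the pooled list the divergent-pair peaks had a median rank of 970 and a median signal of 30.7, against 958.5 and 30.8 for the single-gene promoter peaks. The irreproducible discovery rate (IDR) list, equal to the first 682 of the pooled peaks by signal, held 63 of the 175 divergent-pair peaks (36.0%) and 301 of the 846 single-gene promoter peaks (35.6%).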

How the data were processed

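The authors called peaks on each replicate and on pooled reads of all 3, per the README deposited with each sample. No source used here names the aligner, the caller or the IDR threshold. The signal of each peak is the value deposited by the authors, and served only for ranks inside 1 list. The summit offset was read as the deposited start plus offset plus 1. Files on another build and the control were not used here. Positions are on ce11, 1-based. Genes came from Ensembl release 115 and sequence and gene products from RefSeq, both WBcel235.

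The members and lists were chosen with earlier results of these data known. A pair was the plus-strand and the minus-strand gene whose 5' ends, with the summit in the window, lay nearest the summit. Replicate peaks counted as found when they covered at least 50% of a pooled peak. Words were searched on both strands. Named pairs were the 20 highest-signal ones, pairs of 1 name stem or list, the 4 highest-ranked of each list, the narrowest and widest 3, the 5 steadiest and least steady, the edges, and genes named whatever their values (cpr-9, spp-2, hsp-90, hsp-110, hsp-16.1, hsp-16.2, lys-8, elt-2, pqm-1). The BMP-like genes, the peaks in all top lists and the recurring words were picked after their values were seen. The ribosomal list was widened to names such as rpl-36.A after a first run. Intervals are exact binomial ones at 95% and treat peaks as independent. The functions were tested on simulated data. Versions were SciPy 1.17.1, pandas 2.3.3, numpy 2.4.6, matplotlib 3.10.9 and Python 3.11.15.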

Additional observations from a re-analysis of the deposited data

How the results depend on the processing

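Besides the values given, results were recomputed with other numbers of peaks, windows, 5' ends, overlaps and word windows, and with peaks found in the top 2000 of both other replicates. The share of promoter-window peaks that were divergent-pair peaks stayed within its SD between replicates, a wide 5.53 points, in all 13 alternatives. That share ran from 12.3% with 500 bp upstream to 20.2% with 1500 bp, so it did depend on the window. The number of such peaks was 92 among the 1000 highest-signal peaks, 63 in the IDR list, 98 with windows of 500 bp upstream, and 23 to 70 when it rested on both of 2 replicates, which takes fewer peaks by construction. Median spacing was 396 bp with 500 bp upstream, 814 bp with 1500 bp, which the windows themselves set, and 592 to 787 bp without 1 replicate. With no downstream window 100% of summits lay between the 5' ends, by construction. The nearer 5' end was then 146 bp away, 120 bp with 500 bp upstream, 153 bp with 1500 bp, and 122 to 146 bp without 1 replicate. The share found in all 3 top lists was 17.4% among 1000 peaks and 23.8% in the IDR list, and the share found in the other 2 was 13.1% to 40.0%, the highest without replicate 3. The TGATAAG difference kept its sign in all 15 alternatives but missed an adjusted p of 0.05 with 500 bp upstream (-10.3 points, adjusted p = 0.0781, Fisher's exact test), with words within 25 bp (-3.96, 0.328) and without ribosomal protein genes (-7.53, 0.104; chosen after seeing the data); without 1 replicate it was -16.7 to -13.8, and it missed 0.05 without replicate 1 (0.686) and without replicate 2 (0.464). The difference for the 4 GATA words, whose alternatives were all chosen after seeing the data, ran from -32 to -27 without 1 replicate, with an adjusted p of 0.0891 without replicate 2, and kept its sign and side of 0.05 in the other 14 alternatives. Taking 1 peak per pair or leaving out chromosome X, both chosen after seeing the data, changed no call. No paired analysis was possible between groups of samples because all 3 replicates are of 1 group; the classes of peak were compared within each replicate, as given above. Depth is unknown and limits what a rank can show.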
